A study of Arabidopsis thaliana with 40 samples.

Results

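The mitochondrial genome genes described here are the 146 features whose identifier starts with ATMG, out of the 64790 genes and transposable elements that each sense or antisense table of the series lists. They were taken by identifier alone, and all 146 were found in every table of small RNA (smRNA) and total RNA. The study sequenced smRNAs and total RNA from unopened flower buds of 30-day-old *Arabidopsis thaliana*, grown under 16 h of light and 8 h of dark at 22 °C. The groups are the wild type ecotype Columbia-0 (Col-0) and 8 single mutants in that background, which carry rdr1-1, rdr2-1, rdr3-1, rdr4-1, rdr5-1, rdr6-11, sgs3-11 or rdm12-1. These alleles affect the RNA-dependent RNA polymerases RDR1 to RDR6 and their cofactors SGS3 and RDM12, each represented by a single mutant line. Every mutant has 2 libraries per assay, and the Col-0 libraries fall into a pair used with 7 mutants and a separate pair used with *rdr3*.

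RDRs copy RNA into double-stranded RNA, which DICER-like enzymes cut into short interfering RNAs. The plant mitochondrial genome encodes subunits of the respiratory complexes and of the mitochondrial ribosome, proteins that mature cytochrome c, and its own ribosomal and transfer RNAs. *Arabidopsis* chromosome 2 also holds a large insertion of mitochondrial DNA, so many mitochondrial sequences have a second, nuclear copy.

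The value used throughout is the log2 CPM of a table, the authors' average level of a feature over the libraries that were fitted together, where CPM scales read counts to a common library size. It was the same number for every feature in the 7 tables of the mutants other than *rdr3*, in each of the 4 readouts, with a largest difference of 0 among the tables. It therefore holds 1 level for these mutants and their Col-0 libraries combined, called the set of 7 below, and a separate level for *rdr3* and its Col-0 libraries, called the *rdr3* set. No column gives a single library or a single genotype, so these levels carry no SD, n or test. The effect of each mutation on the mitochondrial genes was not analysed here, and the depth of each library is not known from the tables. A feature without reads takes the lowest value of its table, called the floor, which was -3.86 for smRNA sense and -1.85 for total RNA sense in the set of 7. The sets were scaled separately, and values from both are given side by side.

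The deposited tables give no gene names, and the reference annotation used here names a mitochondrial identifier only in notes on nuclear loci. Such notes linked 53 of the 146 identifiers to 55 nuclear loci, and the other 93 identifiers are given without a name or role. Gene lengths of the mitochondrial identifiers were not held, so levels were not compared between genes per length, and shares below are shares of reads. The text names the 5 highest members of each readout. It also names the members whose note gives a role in respiration, cytochrome c maturation or the ribosome. Members without such a note may have these roles too, which was not tested.

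A read that fits both genomes equally well cannot be assigned to either, so 2 nuclear copies are shown first. They are compared with the reference mitochondrion used here, which may differ from the sequence the authors mapped to. Identity below therefore does not tell which reads were placed, and AT2G07727 held reads at 5.11 in total RNA sense of the set of 7. The nuclear locus AT2G07727, linked to ATMG00220 (apocytochrome b, the core subunit of respiratory complex III), was identical to the reference mitochondrion over its 3243 nt. The nuclear locus AT2G07698, linked to ATMG01190 (subunit 1 of the mitochondrial ATP synthase), differed from it at 1 of 2665 positions. The 60 nt windows below come from RefSeq TAIR10.1 and read 5′ to 3′ on the strand of the nuclear gene, with a base that differs between the genomes in capitals. The nuclear windows lie at chr2:3451125-3451184 on the plus strand (AT2G07727) and chr2:3361898-3361957 on the plus strand (AT2G07698). The mitochondrial windows lie at 182537 to 182596 and at 69169 to 69228 of the RefSeq mitochondrion, both on the minus strand.
AT2G07727, nuclear: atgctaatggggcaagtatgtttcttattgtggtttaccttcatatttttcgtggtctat
ATMG00220, mitochondrial match: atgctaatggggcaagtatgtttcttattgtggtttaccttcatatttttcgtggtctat
AT2G07698, nuclear: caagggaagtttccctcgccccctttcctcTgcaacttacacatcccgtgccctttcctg
ATMG01190, mitochondrial match: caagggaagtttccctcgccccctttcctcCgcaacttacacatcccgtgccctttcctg
The first pair has no difference in the window and the second pair has 1.

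In the set of 7, 85 of the 146 members stood above the floor in smRNA sense and 78 in smRNA antisense. These are 58.2% and 53.4% of the members, beside 82.3% and 81.8% of all features. In total RNA, 75 members exceeded the floor in sense and 65 in antisense, or 51.4% and 44.5%, beside 38.8% and 17.2% of all features. The share of mitochondrial identifiers above the floor was thus below that of all features for smRNAs and above it for total RNA. In the *rdr3* set, the counts were 67, 65, 76 and 64 in the same order, beside 58.9%, 49.4%, 60.4% and 42.7% of all features, and there the share of members in total RNA sense, 52.1%, was below that of all features. Over the 4 readouts and both sets, 46 members were above the floor everywhere and 56 were at the floor everywhere. The same was not counted over all features, so whether these counts are particular to the members was not tested.

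**Figure D1:**
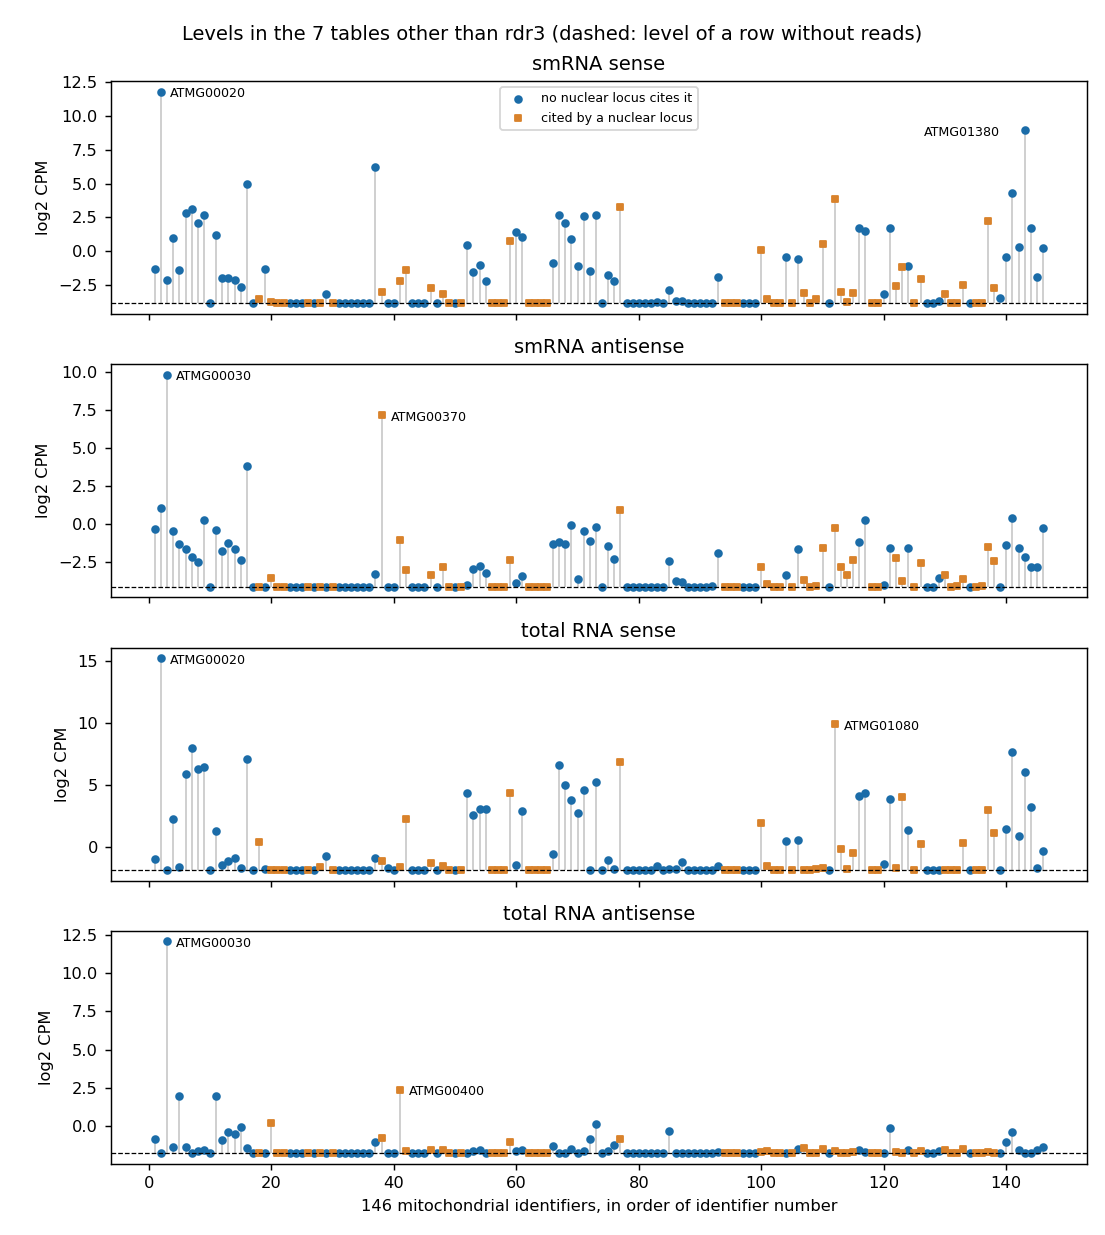
Level of each of the 146 mitochondrial identifiers (vertical axis, log2 CPM) in the set of 7, in order of identifier number (horizontal axis), for the 4 readouts; squares mark the 53 identifiers cited by a nuclear locus and the dashed line is the floor. ATMG00020 reaches 11.80 in smRNA sense and 15.26 in total RNA sense, ATMG00030 reaches 9.81 and 12.07 on the antisense strand, and 61 members lie on the floor in smRNA sense.

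A few members took nearly all reads that were assigned to the mitochondrial gene rows, which leave out reads mapped to several places. The members summed to 4300.0 CPM in smRNA sense in the set of 7, of which ATMG00020 alone took 82.8%, ATMG01380 11.3% and ATMG00360 1.75%. ATMG00160 and ATMG01360 followed with 0.744% and 0.458%, and the 5 together held 97.0%. In smRNA antisense the sum was 1085 CPM, of which ATMG00030 took 82.8%, ATMG00370 13.1% and ATMG00160 1.27%. The remaining members of the leading 5, ATMG00020 and ATMG00730, took 0.188% and 0.175%. The members thus divided into 2 dominant identifiers on each strand and a long tail with small shares. No member led on both strands.

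In total RNA the concentration was stronger. ATMG00020 took 94.2% of the 41768 CPM of the members on the sense strand, and ATMG01080, the membrane-embedded subunit 9 of the mitochondrial ATP synthase, took 2.34%. ATMG00070, ATMG01360 and ATMG00160 held 0.612%, 0.498% and 0.33%. On the antisense strand ATMG00030 took 98.6% of 4369 CPM, and the next, ATMG00400, took 0.118%. The members made up 21.9% of the CPM assigned to all features in total RNA sense and 5.31% in smRNA sense, but without ATMG00020 they summed to 2435 and 740.1 CPM. The 133 plastid identifiers, given for scale, summed to 17219 CPM in total RNA sense and 1803 in smRNA sense.

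The same identifiers led in the *rdr3* set. ATMG00020 took 83.6% of the members' smRNA sense CPM and 92.7% of their total RNA sense CPM there, and ATMG00030 took 78.5% and 98.2% on the antisense strand. The order of the members was also alike, with a Spearman correlation between the sets of 0.95 in smRNA sense over the 67 members above the floor in both, 0.91 in smRNA antisense over 65, 0.94 in total RNA sense over 72 and 0.66 in total RNA antisense over 57. These are descriptions across genes, which share libraries and reads and are not replicates.

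Most members with a log2 CPM of 0 or more were higher on the sense strand. Among the 33 members that reached a log2 CPM of 0 or more on either strand in smRNAs of the set of 7, 29 were higher in sense by more than 1 on the log2 scale, 2 were higher in antisense by that margin and 2 lay within it, beside 34.5% and 13.2% of all features higher in sense and in antisense. Their median difference of sense minus antisense was 3.14 on the log2 scale, beside 0.46 over the 8363 features that passed the same minimum. In total RNA, 40 of 45 members were higher in sense and 4 in antisense, beside 97.5% and 1.69% of 14737 features. The median difference was 4.68 over these members and 3.36 over the features, so the members had the larger median but a smaller share higher in sense. In the *rdr3* set the smRNA difference had a median of 4.85 over 9 members and the total RNA difference a median of 4.79 over 44. The sense and antisense tables were scaled separately. Reads mapped to several places, which both tables count, were lower in smRNA sense than in antisense of the set of 7 by 0.60 on the log2 scale. On a common scale the members' median smRNA difference is therefore larger, 3.74. The median over all features rises by the same 0.60, so the gap between them does not change.

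Of the members higher on the antisense strand, ATMG00030 and ATMG00370 held the most reads. ATMG00030 stood at -2.11 in smRNA sense against 9.81 in smRNA antisense, and at the total RNA floor of -1.85 in sense against 12.07 in antisense. ATMG00020, the next lower identifier, had the opposite pattern, with 11.80 in smRNA sense against 1.03 in antisense, and 15.26 in total RNA sense against -1.73 in antisense. Each of these 2 identifiers was thus read almost entirely on 1 strand, and on opposite strands. In smRNA, ATMG00360 and ATMG00370 formed a second such pair of neighbouring identifiers. ATMG00360 stood at 6.23 in smRNA sense and -3.32 in antisense, and ATMG00370 at -3.05 in sense and 7.16 in antisense. In total RNA of the set of 7 the strands lay close, at -0.85 and -1.01 for ATMG00360 and -1.09 and -0.79 for ATMG00370. In total RNA of the *rdr3* set they lay apart, at 4.01 and -1.58 for ATMG00360 and -1.58 and 3.92 for ATMG00370. The note on the nuclear locus AT2G07739 calls ATMG00370 a Ycf1 protein, after a plastid gene, and ATMG00360 has no note. Whether the identifiers of a pair overlap on opposite strands was not tested, since their positions in the genome build of the files were not held.

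**Figure D2:**
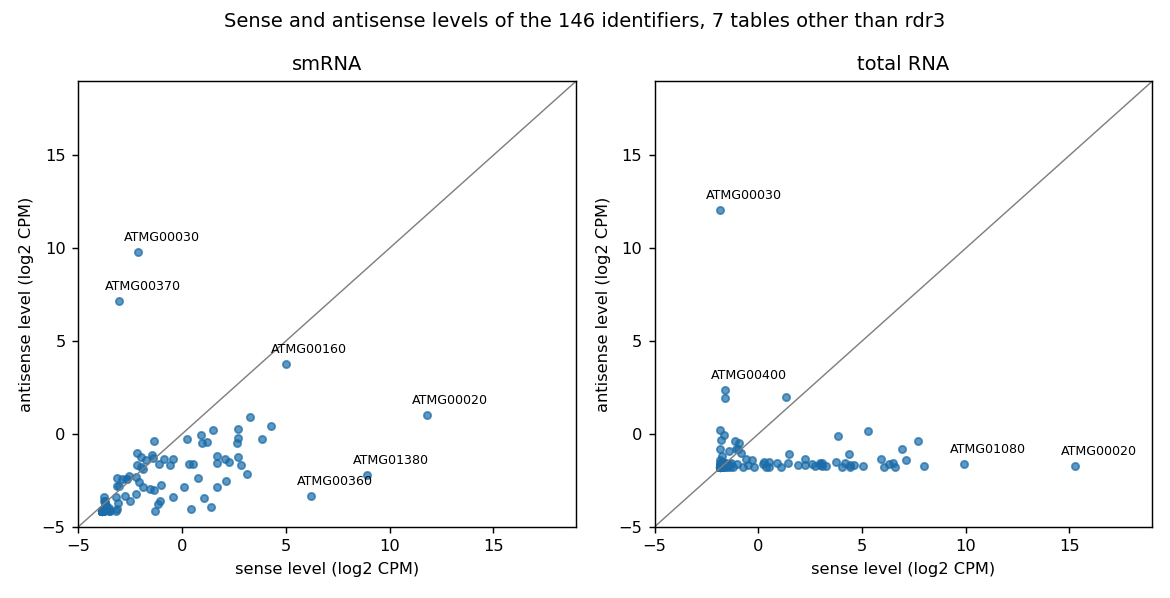
Sense level (horizontal axis, log2 CPM) against antisense level (vertical axis, log2 CPM) of the 146 mitochondrial identifiers in the set of 7, for smRNA (left) and total RNA (right); each point is an identifier and the line marks equal levels. Most points at 0 or more on either strand lie below the line. ATMG00030 lies far above it in both assays (9.81 and 12.07 antisense) and ATMG00370 in smRNA (7.16 antisense). Points at the floor of both strands lie close to the line, on the side set by the floors.

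The remaining antisense signal was low. ATMG00160 had smRNAs on both strands, at 32.0 CPM in sense and 13.7 CPM in antisense, whereas its total RNA stood at 137.7 CPM in sense and 0.375 CPM in antisense. Among members of at least 0 on either strand, ATMG00400, ATMG00050 and ATMG00200 also stood higher in antisense by more than 1. In total RNA of the set of 7 they stood at 2.36, 1.95 and 0.21 in antisense and -1.59, -1.59 and -1.85 in sense. ATMG00110, which also ranked among the 5 highest in total RNA antisense, stood at 1.98 there and at 1.32 in sense. The antisense total RNA of the members, apart from ATMG00030, summed to 63.3 CPM. This sum is not a sum of reads alone, since each of the 81 members at the floor adds 0.294 CPM to it.

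smRNA levels were below total RNA levels for most members. Of the 45 members with a sense log2 CPM of at least 0 in either assay of the set of 7, 5 stood higher in smRNA than in total RNA, beside 32.1% of 21164 features. ATMG01380 stood at 8.93 in smRNA sense and 6.06 in total RNA sense, and ATMG00360 at 6.23 and -0.85. ATMG00570, ATMG01060 and ATMG01410 were the others, and they are named here after their values were seen. In the *rdr3* set none of 39 members stood higher in smRNA, beside 0.208% of 13942 features, and ATMG01380 stood at 5.82 in smRNA sense against 9.45 in total RNA sense. These counts depend on a scaling that includes reads counted under no feature. All features summed to 15488 CPM in smRNA sense and 1.3141e+05 in total RNA sense of the *rdr3* set. In the set of 7 they summed to 81040 and 1.9054e+05. The counts were not repeated without those reads. CPM here is not a plain share of reads. Reads mapped to several places stood at 1.189e+06 CPM in smRNA sense of the *rdr3* set, above what a plain share allows. A difference between assays thus depends on how each was scaled and does not compare amounts of RNA.

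Levels in the 2 library sets were set against each other after subtracting the median shift of all features with an average of at least 0 over the sets. That shift was -3.67 in smRNA sense, -3.46 in smRNA antisense, -0.66 in total RNA sense and 3.70 in total RNA antisense on the log2 scale, as *rdr3* set minus set of 7. None of 18 members in smRNA sense and none of 3 in smRNA antisense departed from it by 4-fold or more. Over all features, 1.71% were at least 4-fold higher and 0.41% at least 4-fold lower in smRNA sense, and 0.501% and 0.547% in smRNA antisense. With so few members and such low shares over all features, these counts of 0 say little about the members. Their median difference from the shift was 0.52 in smRNA sense and -0.805 in smRNA antisense on the log2 scale.

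In total RNA sense, 2 of 38 members were at least 4-fold higher in the *rdr3* set and 0 were lower, beside 4.72% and 0.0437% of all features. These were ATMG00360, at -0.85 in the set of 7 and 4.01 in the *rdr3* set, and ATMG01380, at 6.06 and 9.45. ATMG00020 stood at 15.26 and 14.46, and ATMG01080 stood at 9.93 and 7.88. In total RNA antisense, 5 of 7 members were at least 4-fold lower and 0 higher, beside 39.3% and 8.17% of all features. The 5 were ATMG00030, ATMG00050, ATMG00110, ATMG00200 and ATMG00400, whose own levels differed by less than the median shift of 3.70 that was subtracted. ATMG00030 stood at 12.07 and 11.63 there. The other 2 members, ATMG00370 at -0.79 and 3.92 and ATMG00160 at -1.41 and 1.83, did not depart by 4-fold, and the largest centred difference among the 7 was 1.00 on the log2 scale, for ATMG00370. The sets differ in libraries, genotype and scaling together, and these cannot be told apart.

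**Figure D3:**
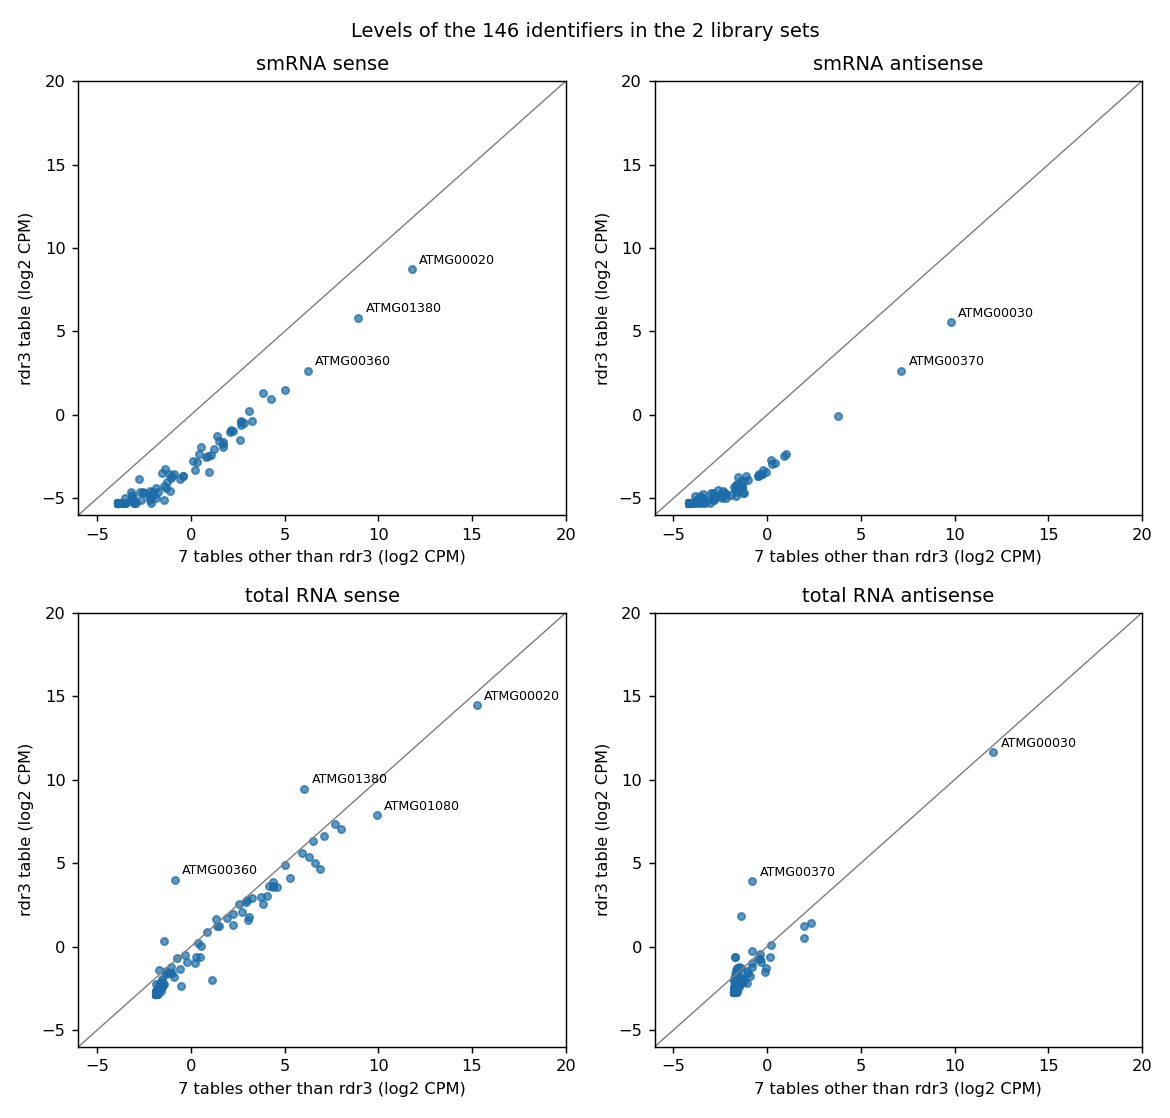
Level in the set of 7 (horizontal axis, log2 CPM) against level in the *rdr3* set (vertical axis, log2 CPM) for the 146 mitochondrial identifiers in the 4 readouts; each point is an identifier and the line marks equal levels. smRNA points lie in a band below the line, while in total RNA ATMG01380 (6.06 and 9.45), ATMG00360 (-0.85 and 4.01) and, in antisense, ATMG00370 (-0.79 and 3.92) lie above it.

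Among the 53 identifiers with a note, 18 were named as parts of 6 classes. Members without such a note are not counted in a class. Of the 18, 9 were above the floor in total RNA sense in the set of 7. Another 7 were at the floor in every readout and set. Complex V, the ATP synthase, had 4 of its 5 noted members above the floor. Subunit 9 (ATMG01080), part of the rotating membrane ring, stood at 9.93 in total RNA sense and 3.87 in smRNA sense, and at 7.88 and 1.29 in the *rdr3* set. Subunit 1 (ATMG01190), of the catalytic head, stood at 4.04 and -1.17, and ATPase subunit 6-1 (ATMG00410), which lines the proton channel, at 2.24 and -1.36. ATMG01090, which the note names an ATP synthase 9, stood at -0.20 in total RNA sense. Subunit 8 (ATMG00480) was at the floor in every readout.

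Complex IV, the cytochrome c oxidase, had both of its noted members above the floor. Subunit 3 (ATMG00730) stood at 6.91 in total RNA sense and 3.28 in smRNA sense, and at 4.67 and -0.34 in the *rdr3* set. It also had antisense smRNAs at 0.92 in the set of 7, against -0.81 in total RNA antisense. ATMG01280, called subunit II-like, stood at 0.29 in total RNA sense and -2.50 in smRNA sense. The single member counted for complex III, apocytochrome b (ATMG00220), was at the floor throughout. So was ATMG00590, which the note calls a cytochrome b/b6 protein and which is counted in no class.

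Complex I, the NADH dehydrogenase that passes electrons to ubiquinone, had 1 of its 3 noted members above the floor in total RNA sense. That member, subunit 2B (ATMG01320), stood at 2.99 in total RNA sense and 2.24 in smRNA sense, and at 2.76 and -0.95 in the *rdr3* set. Subunit 3 (ATMG00990) was at the floor in every readout, and subunit 1A (ATMG01275) left it only in smRNA antisense, at -4.10 against a floor of -4.14. Of the 3 members noted for cytochrome c maturation, the assembly protein ATMG00960 stood at 1.90 in total RNA sense and 0.10 in smRNA sense. The biogenesis factor ATMG00180 stood at 0.39 and -3.54. A second biogenesis factor (ATMG00900) was at the floor throughout. None of the 4 members that a note names as ribosomal proteins was above the floor in total RNA. L5 (ATMG00210), S4 (ATMG00290) and the S12 family member (ATMG00980) were at the floor in every readout, and S7 (ATMG01270) left it only in smRNA sense, at -3.82 against -3.86.

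A member at the floor cannot be read as a silent gene, because reads mapped to several places were counted in a total of their own and under no feature. In the reference, 70.6% of the 367759 windows of 50 nt in the mitochondrion occurred without a mismatch in a nuclear chromosome, and 70.4% in chromosome 2. With windows of 24 nt, near the length of smRNAs, the shares were 72.7% and 72.2%. Of the 55 linked nuclear loci, 54 carry identifiers of the AT2G07 series between 3239693 and 3503476 on chromosome 2, and ATMG00450 is linked to AT2G18323 on the same chromosome. The aligned copies were at least 99.0% identical to the mitochondrion, and 27 of the 55 loci shared every 50 nt window with it. The authors counted 734 mitochondrial bins of 500 nt against 736 expected from the reference used here, so the sequence they mapped to may differ in length. These shares describe the reference and not the authors' alignment.

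Linked members are given beside unlinked ones. In total RNA sense of the set of 7, 23 of 53 linked members and 52 of 93 unlinked members were above the floor, and in smRNA sense 27 of 53 and 58 of 93. The groups were set by annotation notes, and an unlinked identifier may also have a nuclear copy, which was not tested. Of the 53 linked members, 23 were at the floor in all 8 columns, and for 14 of these 23 the nuclear locus was above the floor in at least 1 column, for 10 in all 8. Among the 23, 15 had a nuclear locus sharing every 50 nt window with the mitochondrion, and among the 30 other linked members 12 did.

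Several members of these classes that were at or near the floor under the mitochondrial identifier had reads under the nuclear one. AT2G07727, the nuclear copy of apocytochrome b, stood at 5.11 in total RNA sense and 1.58 in smRNA sense, where ATMG00220 was at the floor. AT2G07725, the copy of ribosomal protein L5, stood at 3.47 and 4.21, and AT2G07734, the copy of S4, at 3.66 and -0.46. AT2G07785, the copy of NADH dehydrogenase 1A, stood at 2.58 and 0.52, and AT2G07696, the copy of S7, at 1.29 and -0.30. In these 5 cases the reads appeared only or almost only on the nuclear row, although 3 of these loci, AT2G07727, AT2G07725 and AT2G07696, had no difference from the reference mitochondrion.

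The reverse also occurred. AT2G07671, the copy of subunit 9, stood at -1.32 in total RNA sense beside 9.93 for ATMG01080, and AT2G07741, the copy of ATPase 6-1, was at the floor beside 2.24 for ATMG00410. AT2G07687, the copy of cytochrome c oxidase subunit 3, stood at 2.25 beside 6.91 for ATMG00730. For subunit 1 of the ATP synthase both rows carried reads, with 6.77 for AT2G07698 and 4.04 for ATMG01190. For NADH dehydrogenase 3, ribosomal protein S12 and ATPase subunit 8 the nuclear and the mitochondrial rows were both at the floor. Summed over the linked loci, the nuclear rows held 106.8 CPM in smRNA sense against 38.3 CPM for the mitochondrial rows. In smRNA antisense the order was the reverse, with 25.9 CPM for the nuclear and 150.4 CPM for the mitochondrial rows, of which ATMG00370 made up 142.7. In total RNA sense the nuclear rows held 311.0 and the mitochondrial rows 1171 CPM, of which ATMG01080 made up 978.2. Which genome a read on either row came from was not tested.

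**Figure D4:**
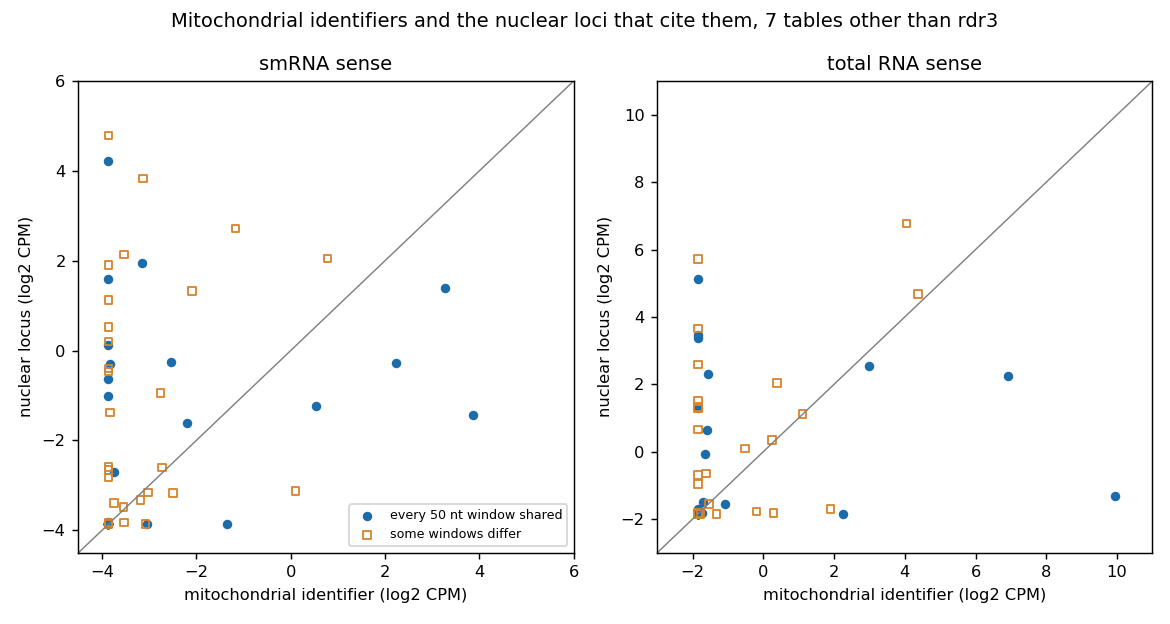
Level of a mitochondrial identifier (horizontal axis, log2 CPM) against the level of the nuclear locus whose note cites it (vertical axis, log2 CPM) in the set of 7, for smRNA sense (left) and total RNA sense (right), with 55 pairs each; filled points share every 50 nt window with the reference mitochondrion and open squares do not. Points along the left edge are identifiers at the floor whose nuclear locus has reads, such as the pair of AT2G07727 at 5.11 in total RNA sense, and the point at 9.93 and -1.32 is subunit 9.

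A linked member outside the 6 classes also had more smRNA reads on the nuclear row. ATMG01110, which the note calls an RNA-dependent RNA polymerase of a mitovirus, a kind of virus that replicates in mitochondria, stood at -3.13 in smRNA sense and -2.36 in antisense of the set of 7. Its nuclear locus AT2G07749 stood at 3.83 and 2.76, and its total RNA at 0.10 in sense and 0.65 in antisense, all in the set of 7. In the *rdr3* set the order of the assays was the opposite, with smRNAs at -0.32 and -0.77 and total RNA at 1.42 and 1.45. It is named after its values were seen.

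smRNA reads were also counted by 500 nt bins of the genome, without regard to genes. Of the 734 mitochondrial bins, 723 were above the floor in the set of 7 and 717 in the *rdr3* set, or 98.5% and 97.7%. The chromosomes of the nucleus had 98.2% to 98.9% and 71.0% to 75.0% of their bins above the floor, so the mitochondrial share stood within the nuclear range in the set of 7 and above it in the *rdr3* set. The median bin stood at 0.12 in the set of 7, beside 2.63 for the 309 plastid bins and -3.63 to -3.48 for the chromosomes of the nucleus. The highest mitochondrial bin reached 11.10, and the 5 highest held 41.7% of the 19546 CPM of the mitochondrial bins. In the *rdr3* set the median was -3.16 and the highest bin 7.20. The study allowed many alignments per read in mapping and counted reads per bin with bedtools, and whether a read was counted in each of its places was not tested.

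Nuclear genes that act in mitochondria were read as a reference for the total RNA levels. All 15 genes of the list stood above the floor, from 1.13 for *MSH1* (AT3G24320), which guards organelle DNA against recombination, to 5.16 for AT5G08690, a beta subunit of the ATP synthase. Per kilobase of exon the log2 levels ran from -0.95 for *MSH1* to 4.02 for AT5G08690. The alternative oxidase *AOX1A* (AT3G22370), a marker of mitochondrial stress, stood at 1.58 in total RNA sense in the set of 7 and 0.75 in the *rdr3* set. The phage-type RNA polymerases *RPOTM* (AT1G68990) and *RPOTMP* (AT5G15700), which transcribe mitochondrial genes, stood at 2.38 and 1.39 in the set of 7. Their smRNA sense levels were -1.53 and -2.41 in the set of 7, beside a median of -3.11 over all features. Over the 15 genes all smRNA sense levels lay below 0.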

How the data were processed

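smRNA and total RNA reads from 40 libraries (20 per assay, 2 per group) were trimmed by the authors with cutadapt, mapped to TAIR10 with TopHat and counted with HTSeq per strand; bedtools is also named in the submitters' processing notes. The authors then fitted the counts in edgeR and deposited 5 tables per mutant, with the average level as log2 CPM, a log2 fold change over Col-0, a p-value and an FDR. Only the deposited log2 CPM was used. The other 3 columns hold the authors' comparisons of mutant and Col-0 and were not used, so no test was made. Tool versions are not given in the sources used here. The study states a range of mapped reads for each assay, higher for smRNA than for total RNA, but the tables give no depth per library.

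Rows of HTSeq's totals were left out. A member counted as above the floor when it exceeded the lowest log2 CPM of its table by more than 1e-06. CPM sums are sums of 2 to the log2 CPM and include the rows at the floor. Nuclear loci were linked by annotation notes and aligned to the RefSeq mitochondrion with blastn 2.17.0; windows of 24 and 50 nt were matched without mismatches on either strand. Chromosome 2 has 39397 bins in the files and as many expected from RefSeq TAIR10.1, whereas the mitochondrion differs. Chromosome 1 also differs, with 60855 bins against 60856 expected. The window search and the count above the floor were tested on simulated data. The set comparison, strand scaling and copy analysis were chosen after the data were seen, and the members and lists were chosen with earlier results of these data known. For total RNA, the *rdr3* labels number their controls differently from the Col-0 libraries of that set. Named genes followed a rule of functional class and the 5 highest members per readout; its parts on differences between tables could not be used because the columns were identical. Levels per length by class and uniqueness of each member in the genome were not computed, because the files' mitochondrial annotation was not held. Values were computed with pandas 2.3.3.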

Additional observations from a re-analysis of the deposited data

How the results depend on the processing

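The number of members above the floor kept within 1.5 times for 6 of 16 alternatives. Counting only members more than 0.5 above the floor gave 42 in place of 65 in smRNA antisense of the *rdr3* set and 21 in place of 65 in total RNA antisense of the set of 7. A minimum log2 CPM of 0 left 31 and 7 members in smRNA sense (set of 7, *rdr3* set), 8 and 2 in smRNA antisense, 41 and 39 in total RNA sense, and 6 and 7 in total RNA antisense. The fall follows from the stricter minimum.

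The median log2 CPM of all 146 members was -3.54 in smRNA sense, -4.04 in smRNA antisense, -1.79 in total RNA sense and -1.77 in total RNA antisense, at or near the floor of each table. With CPM rescaled without HTSeq's totals the medians were 0.0851, 0.178, 0.60 and 3.47, over members of at least 0 they were 2.07, 0.97, 3.76 and 1.96, and in the *rdr3* table they were -5.28, -5.29, -2.65 and -2.73, in the same order.

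The median strand difference was positive under every alternative run. Over members of at least 0 on both strands it was 2.38 for smRNA in the set of 7 (6 members) and 2.23 and 2.59 for total RNA in the set of 7 and the *rdr3* set (2 members each); no member met this in smRNA of the *rdr3* set. Scaled on reads mapped to several places, an alternative added after seeing the data, it was 3.74 for smRNA in the set of 7 and 4.72 for total RNA in the *rdr3* set. Leaving out ATMG00020, ATMG00030, ATMG00360 and ATMG00370, also added, cannot move it, because as many of them lie above the median as below, and is no check of it.

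No paired analysis was possible because the tables hold no value per library. Leaving out each replicate, another normalization, leaving out the *rdr2* tables and all alternatives on departures between tables or on gene length were not run, since they need values per library, per table or per length. Depth limits the low levels most, and the tables give no depth per library.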
